A study of Mus musculus with 6 samples.

Results

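Transcripts of 41 genes of DNA replication and repair were compared between KYSE30 cells exposed to 100 uM acetylcholine (ACh) for 4 h and Control cells. KYSE30 is a human line established from a squamous carcinoma of the esophagus. Acetylcholine is a neurotransmitter whose receptors are the muscarinic and the nicotinic type. Both groups were wild type, were sampled at 4 h and were grown in the same serum-supplemented medium, and each had 3 libraries of total RNA from this single cell line. What the Control cells received in place of ACh is not given in the labels. The authors' deposited table holds 4195 genes, all with an unadjusted p under 0.05 in it. Its gene IDs are human although the labels name mouse. The 41 genes are the protein-coding rows of that table, outside its transcription factor families, whose symbols match a pattern of replication and repair names. Of 107 genes that the pattern reaches and that were given a role here, 35 were in the table. The other 6 (ERCC6L, ERCC6L2, PARP4, PARP10, PARP14 and RRM2B) matched by name. They were not on that list of roles, which does not mean that they lack one. A gene outside the table has no value here.

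Replication starts where the origin recognition complex (ORC) loads rings of MCM proteins onto DNA, which become the fork helicase once CDC45 and GINS join them. DNA polymerase alpha with primase then starts each strand, the clamp loader RFC places the sliding clamp, polymerases delta and epsilon extend, ligase I seals the lagging strand, and ribonucleotide reductase supplies the nucleotides. Checkpoint kinases guard stalled forks, and mismatch, excision, end-joining and recombination repair each remove their own kind of damage.

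These genes moved in both directions and by little. A gene is said here to have risen or fallen where its adjusted p was under 0.05 both by limma and in the authors' deposited table, and is otherwise called uncalled. Of the 41 genes, 12 rose in ACh and 8 fell, and 21 were uncalled. Among all 4195 listed genes 28.8% rose and 35.0% fell. Giving all libraries the same total over these genes turned that balance, with 1207 listed genes higher and 990 lower, and moved the median of all listed genes to -0.018. Passing both tests was common in the table, at 63.8%, and 20 of 41 is no excess over it. The median log2 fold change was 0.15 over the 41 genes, against -0.098 over all listed genes. In each of the 41 the change was under 1.5-fold, as in 3949 of the 4195 listed genes. The strongest rise was that of RFC3, a subunit of the clamp loader, and the strongest fall that of PARP10, a mono-ADP-ribosyltransferase. Because the table was selected for a difference between the groups, limma alone passed all 41 genes and 99.6% of the table. Direction went with base composition, genes of low GC content being higher in ACh and genes of high GC content lower. With the trend on GC content removed from the libraries 1 of the 41, RFC3, was higher and 1 lower past both tests. In bulk RNA fewer cells of a type and less RNA per cell cannot be told apart.

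The values are normalised read counts, and the authors' division by 1 factor per library could be undone. Every value was a whole multiple of 1 step per library, within 0.1 of a step. The recovered reads over the listed genes were 9420144 to 10036897 in ACh libraries and 11258647 to 14453391 in Control libraries, so every ACh library was shallower in these genes. For the 41 genes the recovered reads ranged from 141 to 10666 per gene and library. The median SD over replicates was 4.02% of the mean. Whether the replicates were separate cultures is not stated in the labels, and the p-values reflect the spread among these libraries, possibly a technical one. Of 18 markers of esophageal squamous cells used to check the cell type 9 were listed, summing to 84749 to 86734 normalised reads in ACh and 86239 to 89475 in Control. ITGB4, COL17A1 and ITGA6 made up most of these reads. Of the 9 markers 3 rose, 4 fell and 2 were uncalled, with log2 fold changes from -0.26 for SFN to 0.23 for TP63. Of 17 markers of other cell types 3 were listed (COL1A1, EGFL7 and LAPTM5), at 982 to 1156 normalised reads in ACh and 1219.6 to 1291 in Control. EGFL7 made up most of that sum. LAPTM5, a leukocyte marker, had 31.1, 39.6 and 48.2 normalised reads in ACh and 19.7, 21.3 and 17.7 in Control (log2 fold change 0.96, limma adjusted p = 0.00138). It was uncalled, as it did not pass the authors' adjusted p, and its reads were few. The part of these markers in the results below was not tested.

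**Figure D1:**
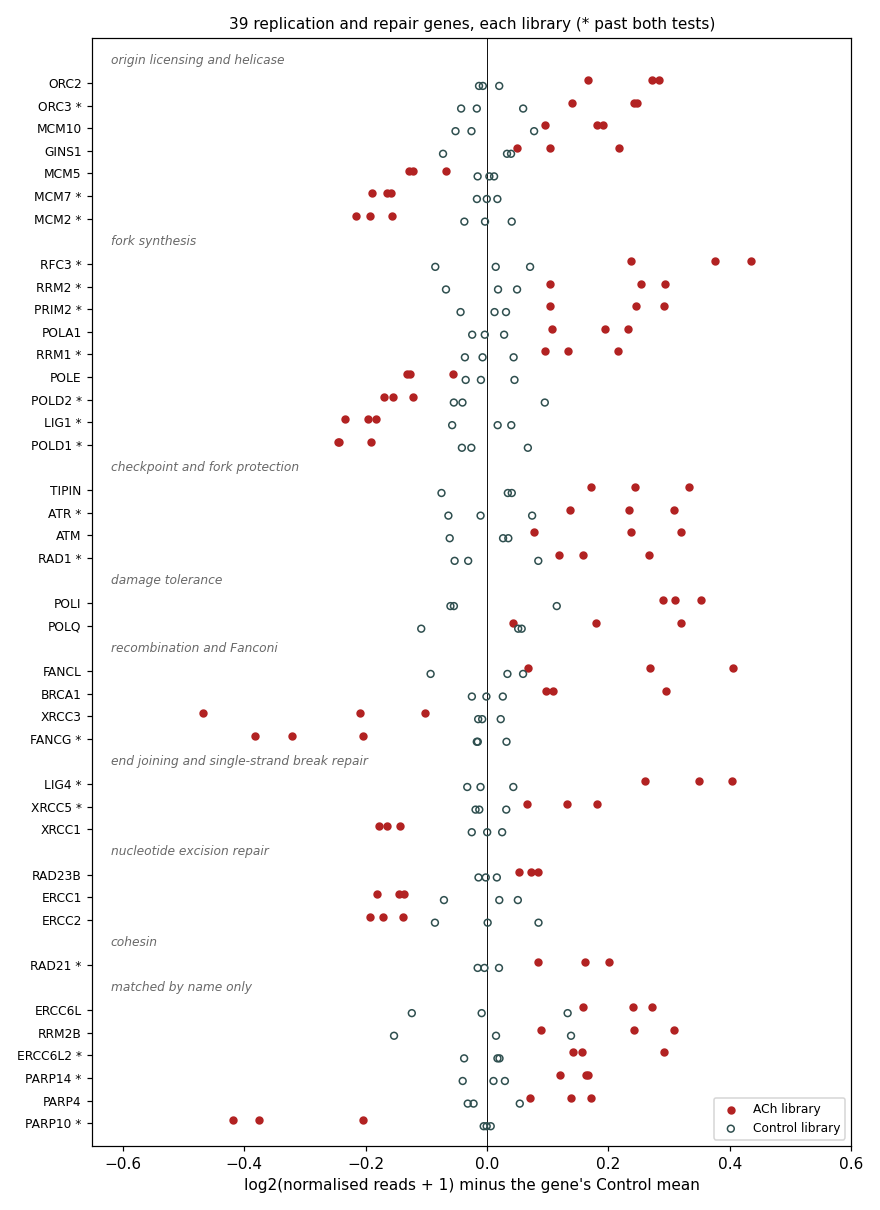
Each row is 1 gene and each point 1 library, drawn as log2(normalised reads + 1) minus the mean of that gene's 3 Control libraries; filled points are ACh, open points Control, and an asterisk marks a gene past both tests; 39 of the 41 genes are drawn. The ACh points of a gene lie all to the right or all to the left of its Control mean, and in 2 genes, POLQ and RRM2B, the groups overlap.

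The groups rarely overlapped. In 25 genes every ACh library was above every Control library, and in 14 genes every ACh library was below. Over all listed genes these shares were 44.6% and 48.3%, so separation of the groups is the rule in this table. All 27 higher genes were above their Control mean in each of the 3 ACh libraries, and all 14 lower genes below it. Among the ACh libraries, replicate 2 held the highest value of 16 of the 27 higher genes and replicate 3 the lowest value of 16. The median deviation of the 27 genes from their Control means was 0.16 in ACh replicate 1, 0.24 in replicate 2 and 0.16 in replicate 3 on the log2 scale.

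Genes that license origins and open the helix moved both ways. Of 7 listed genes 1 rose and 2 fell, with 4 uncalled. The helicase ring subunits MCM7 and MCM2 fell and the origin recognition subunit ORC3 rose. MCM7 (ENSG00000166508, chromosome 7, 100092728 to 100101940, coordinates as the file gives them) had 7181, 7341 and 7304 normalised reads in ACh libraries, against 8097, 8289 and 8189 in Control libraries. Every ACh library lay below every Control library. The log2 fold change was -0.17, with a standard error (SE) of 0.031 and a limma adjusted p of 0.000115. MCM2 had 3425, 3512 and 3371 normalised reads in ACh, against 3813, 4025 and 3904 in Control, again without overlap, a log2 fold change of -0.19 (limma adjusted p = 0.000117). Another ring subunit, MCM5, had 2744, 2628 and 2642 in ACh and 2844, 2898 and 2882 in Control and was uncalled at a log2 fold change of -0.11. ORC3, which helps to mark origins, had 732, 786 and 789 normalised reads in ACh and 646, 693 and 657 in Control. All 3 ACh values were above all 3 Control values (log2 fold change 0.21, limma adjusted p = 0.00342).

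The remaining helicase and origin genes had higher means in ACh and were uncalled. ORC2, the partner of ORC3 in the same complex, had 476, 479.7 and 442 normalised reads in ACh and 399.8, 391 and 392 in Control. Its log2 fold change of 0.24 exceeded that of ORC3, on fewer reads. MCM10, which helps to activate the helicase, and GINS1, a subunit of the active helicase, had log2 fold changes of 0.16 and 0.12. The ACh values of GINS1 ran close to those of Control, with a lowest ACh library at 1367 and a highest Control library at 1358. Without ACh replicate 2 its log2 fold change was 0.076 (limma adjusted p = 0.148). Of the 6 genes of the MCM ring, 3 were in the table.

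At the fork, RFC3, PRIM2 and the reductase subunits RRM1 and RRM2 rose while POLD1, POLD2 and LIG1 fell. Of 9 listed genes 4 rose and 3 fell, with 2 uncalled. RFC3 (ENSG00000133119, chromosome 13, 33818049 to 33966558) had 1199.9, 1151 and 1046 normalised reads in ACh libraries, against 932, 896 and 836 in Control libraries. It averaged 1132 ± 78.6 in ACh and 888 ± 48.3 in Control (SD, n = 3 each), and no library crossed over. The log2 fold change was 0.35, with an SE of 0.057 and a limma adjusted p of 5.52e-05. RRM2, the regulated small subunit of ribonucleotide reductase, had 2319, 2383 and 2089.9 normalised reads in ACh and 2013, 1969 and 1856 in Control. Its lowest ACh library was replicate 3, still above all Control libraries (log2 fold change 0.22, limma adjusted p = 0.000469). PRIM2, the large subunit of primase, had 892, 921 and 809 normalised reads in ACh and 759, 769 and 730.2 in Control, with the same order of ACh libraries as RRM2 (log2 fold change 0.21, limma adjusted p = 0.00286). RRM1, the large reductase subunit, had 2318, 2455 and 2259 normalised reads in ACh and 2104, 2179 and 2062 in Control and rose by 0.15 on the log2 scale, but stood at -0.041 with the GC trend removed.

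POLD1, the catalytic subunit of polymerase delta, fell. It had 1805, 1870.2 and 1803 normalised reads in ACh and 2076, 2238 and 2098 in Control, with no overlap of the groups. The log2 fold change was -0.23, with an SE of 0.040 and a limma adjusted p of 9.56e-05. LIG1, which joins the fragments of the lagging strand, had 1977, 2029.7 and 2049 normalised reads in ACh and 2235, 2354 and 2391 in Control. It fell by 0.20 on the log2 scale. POLD2, an accessory subunit of polymerase delta, fell by 0.15 on the log2 scale, with 3171, 3241 and 3138 normalised reads in ACh and 3431, 3769 and 3398 in Control. The Control library of replicate 2 stood above the other Control libraries for POLD2 and POLD1. With the libraries scaled to equal totals over the listed genes POLD2 was at -0.069 and no longer passed. With the GC trend removed POLD1 and POLD2 turned to 0.027 and 0.092. POLE, the catalytic subunit of polymerase epsilon, and POLA1, that of polymerase alpha, were uncalled at log2 fold changes of -0.11 and 0.18. POLA1 had 605, 589 and 554 normalised reads in ACh and 525, 506 and 514 in Control.

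Ratios between genes within a library do not depend on how the libraries were scaled. The ratio of normalised reads of POLA1 and PRIM2 to those of POLD1 and POLD2 was 0.301, 0.295 and 0.276 in ACh libraries, against 0.233, 0.212 and 0.226 in Control libraries. The ratio of ORC2 and ORC3 to MCM2, MCM5 and MCM7 was 0.0905, 0.0939 and 0.0925 in ACh and 0.0709, 0.0712 and 0.0701 in Control. Mean ratios in ACh were 1.30 and 1.31 times those in Control. For both ratios the ACh libraries lay above every Control library. The genes in these ratios were chosen with their directions known, so the ratios are a description without a test. Removing the GC trend left little of these differences in log2 fold change. POLA1 and PRIM2 stood at -0.037 and 0.076, beside 0.027 and 0.092 for POLD1 and POLD2. ORC2 and ORC3 stood at 0.051 and 0.0078, beside -0.014, -0.016 and -0.023 for MCM2, MCM5 and MCM7.

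**Figure D2:**
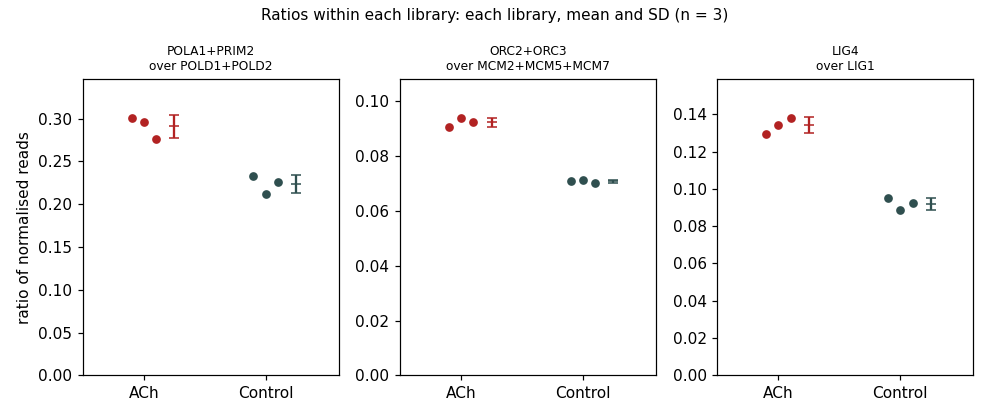
Ratios of normalised reads within each library, ACh left and Control right, with each library as a point and the mean and SD (n = 3) beside it; axes start at 0. In each of the 3 panels the ACh libraries lie above the Control libraries, for instance between 0.130 and 0.138 in ACh against 0.0888 and 0.0950 in Control for LIG4 over LIG1. The genes of all 3 ratios were chosen with their directions known.

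Checkpoint genes had higher means in ACh throughout. Of 4 listed genes 2 rose and 2 were uncalled. All 4 had a GC content of 40.8% to 45.6%. Of the 1790 listed genes under 50.4% GC, 1055 rose and 90.7% had a higher mean in ACh. With the GC trend removed ATR, ATM and TIPIN stood at 0.0084, 0.0064 and 0.032. ATR, the kinase that answers stalled forks, had 1094, 1231 and 1169.7 normalised reads in ACh and 1047, 952 and 987 in Control. The lowest ACh value stood just above the highest Control value (log2 fold change 0.23, SE 0.054, limma adjusted p = 0.00108). RAD1, part of the checkpoint clamp that helps to activate ATR, had 1291, 1392 and 1257 normalised reads in ACh and 1227, 1115 and 1133 in Control and rose by 0.18 on the log2 scale, against -0.00082 with the GC trend removed. TIPIN, which steadies the fork, had 374, 352 and 334 normalised reads in ACh and 304, 305 and 282 in Control. ATM, the kinase that answers double-strand breaks, was at 713, 638 and 755 in ACh and 579, 616 and 619.6 in Control. Both had ACh libraries above all Control libraries, at log2 fold changes of 0.25 and 0.21, and neither passed the adjusted p of the authors' deposited table (0.0865 and 0.0525).

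Polymerases of damage tolerance also had higher means, and both were uncalled. POLI, a translesion polymerase, had 180.1, 178 and 186 normalised reads in ACh and 139, 157 and 139.7 in Control, the lowest reads among the 41 genes. Its log2 fold change of 0.32 came with a standard error of 0.11. POLQ, the polymerase of an alternative end-joining route, overlapped between the groups, with 668, 608 and 736 in ACh and 611, 547 and 613 in Control, and its log2 fold change of 0.18 was 0.11 without ACh replicate 3.

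Among recombination and Fanconi anemia genes 1 of 4 fell and 3 were uncalled. FANCG, a scaffold of the Fanconi core complex, had 449, 488 and 431 normalised reads in ACh and 556, 574 and 555 in Control. Its ACh libraries spread more widely than its Control libraries and all lay below them (log2 fold change -0.30, SE 0.069, limma adjusted p = 0.00083). FANCL, the ubiquitin ligase of the same complex, had a higher mean, at 425, 537 and 488 in ACh and 422, 415 and 380.1 in Control. ACh replicate 1 nearly touched the highest Control library. BRCA1, which promotes recombination, and XRCC3, which acts in homologous recombination, were uncalled at log2 fold changes of 0.17 and -0.26. BRCA1 had 1103, 1256 and 1094 normalised reads in ACh, with replicate 2 the highest, and 1006, 1042 and 1023 in Control. Its log2 fold change was 0.10 without that library (limma adjusted p = 0.0676). XRCC3 had 322, 299 and 249 normalised reads in ACh, a wide spread, and 344, 342 and 351 in Control, and its log2 fold change was -0.16 without ACh replicate 3.

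Of the 3 listed genes of end joining and single-strand break repair 2 rose. LIG4, the ligase of non-homologous end joining, had 256, 273 and 283 normalised reads in ACh and 212, 209 and 220.4 in Control. The groups were well apart for this low transcript, with a log2 fold change of 0.34, an SE of 0.093 and a limma adjusted p of 0.0029. XRCC5, which encodes Ku80, a sensor of broken ends, had 5691, 5889 and 5433 normalised reads in ACh and 5148, 5309 and 5126 in Control and rose by 0.13 on the log2 scale, but stood at -0.056 with the GC trend removed. XRCC1, the scaffold of single-strand break repair, was lower at 727, 744 and 734 in ACh and 837, 823 and 808 in Control and uncalled. The ratio of LIG4 to LIG1, the ligases of end joining and of replication, was 0.130, 0.134 and 0.138 in ACh libraries and 0.0950, 0.0888 and 0.0922 in Control libraries. These genes too were chosen with their directions known, so this ratio is a description without a test.

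Among genes of nucleotide excision repair, RAD23B, a partner of the damage sensor XPC, had 8483, 8299 and 8413 normalised reads in ACh and 8092, 7990.4 and 7924 in Control. All ACh values were above all Control values, but the log2 fold change was only 0.070 and the gene was uncalled. ERCC1, part of the nuclease that cuts beside a lesion, had 1006, 981 and 1011 in ACh and 1059, 1128 and 1152 in Control. ERCC2, the helicase XPD, had 674, 700.3 and 684 in ACh and 727, 818 and 772 in Control. Both were lower in every ACh library and uncalled, at log2 fold changes of -0.15 and -0.17.

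RAD21, the kleisin subunit of cohesin, which holds sister chromatids together, rose as well. It had 8122, 8349.8 and 7699 normalised reads in ACh and 7364, 7243 and 7187 in Control. The 3 ACh libraries were above the Control libraries (log2 fold change 0.15, limma adjusted p = 0.000801). Removing the GC trend turned its log2 fold change to -0.041.

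Of the 6 genes matched by name 2 rose, 1 fell and 3 were uncalled. PARP10 had 697, 809 and 718 normalised reads in ACh and 936, 931 and 928 in Control. Control libraries were nearly equal, and ACh replicate 2 was the highest of the ACh libraries (log2 fold change -0.33, SE 0.059, limma adjusted p = 0.000108). PARP14, an interferon-linked mono-ADP-ribosyltransferase, had 3855, 3979 and 3971 in ACh and 3573, 3449.8 and 3620.2 in Control and rose by 0.15 on the log2 scale. ERCC6L2, a helicase-like repair factor, had 787, 864 and 779 in ACh and 715, 716 and 688 in Control and rose by 0.20 on the log2 scale. Both changed sign with the GC trend removed, PARP14 to -0.027 and ERCC6L2 to -0.00068. ERCC6L, a helicase of mitotic chromosomes, PARP4, a part of the vault particle, and RRM2B, a p53-induced reductase subunit, were uncalled at log2 fold changes of 0.22, 0.13 and 0.21. RRM2B overlapped between the groups, with 625, 654 and 562 normalised reads in ACh and 581, 475 and 534 in Control, and stood at 0.14 without Control replicate 2.

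**Figure D3:**
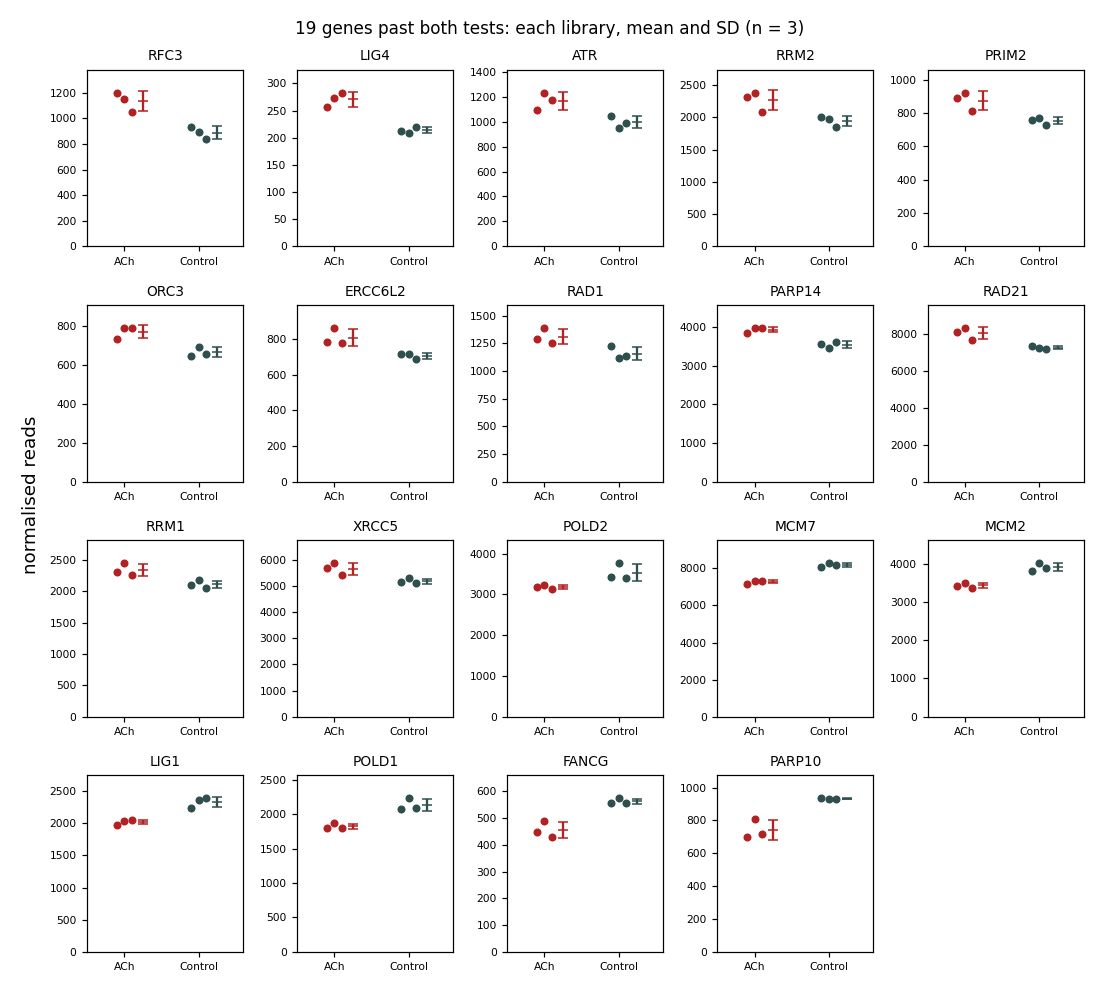
Normalised reads of 19 of the 20 genes past both tests, ACh left and Control right in each panel, with each library as a point and the mean and SD (n = 3) beside it; axes start at 0. The 12 genes that rose come first, from RFC3 to XRCC5, and 7 that fell follow, ending with PARP10; no panel shows an overlap of the groups. With the GC trend removed ERCC6L2, RAD1, PARP14, RAD21, RRM1, XRCC5, POLD2 and POLD1 changed sign.

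Levels per length spread over a wide range. Normalised reads per kilobase of the length given in the file were highest for RAD23B in ACh (1819.8, against 1734 in Control) and for MCM7 in Control (1659 in ACh, against 1868). They were lowest for POLI (19.1 in ACh and 15.4 in Control) and ATM (29.3 in ACh and 25.2 in Control). Where reads of overlapping genes were assigned is not given, and a stranded count is not stated. Of the 41 genes 6 overlapped another listed gene on the opposite strand, which makes their values less certain, among them MCM2 with TPRA1, PARP10 with GRINA, RAD21 with UTP23, RAD1 with BRIX1 and XRCC3 with KLC1.

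Direction followed base composition without exception among the 41 genes. GC content came from mouse, as the longest coding transcript of the gene with that symbol, and was found for all 41. The 27 higher genes had a GC content of 39.4% to 50.3% (median 45.6%) and the 14 lower genes of 50.6% to 60.7% (median 56.2%). POLE, at 50.6%, was the lower gene nearest to that gap. Spearman's rho across the 41 genes between GC content and log2 fold change was -0.77, and it was -0.76 across the 3676 listed genes with a GC value. The points share the same 6 libraries, and genes are not independent replicates. Of all listed genes below the gap 90.7% were higher in ACh and of those above it 5.94%, so the replication and repair genes shared a pattern of the whole table. The opposite directions of LIG4, at 42.1%, and LIG1, at 53.6%, followed it too, as did those of PRIM2, at 47.8%, and POLD1, at 60.7%. Of the 14 lower genes 6 lay on chromosome 19, among them POLD1, LIG1, ERCC1, ERCC2 and XRCC1, and 0 of the 27 higher genes did. Of the 406 listed genes on that chromosome 374 were lower. The 353 of them with a GC value had a median GC content of 58.0%. With the GC trend removed 197 of these 353 were higher, and their median log2 fold change was 0.015. The part of the chromosome was not tested.

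**Figure D4:**
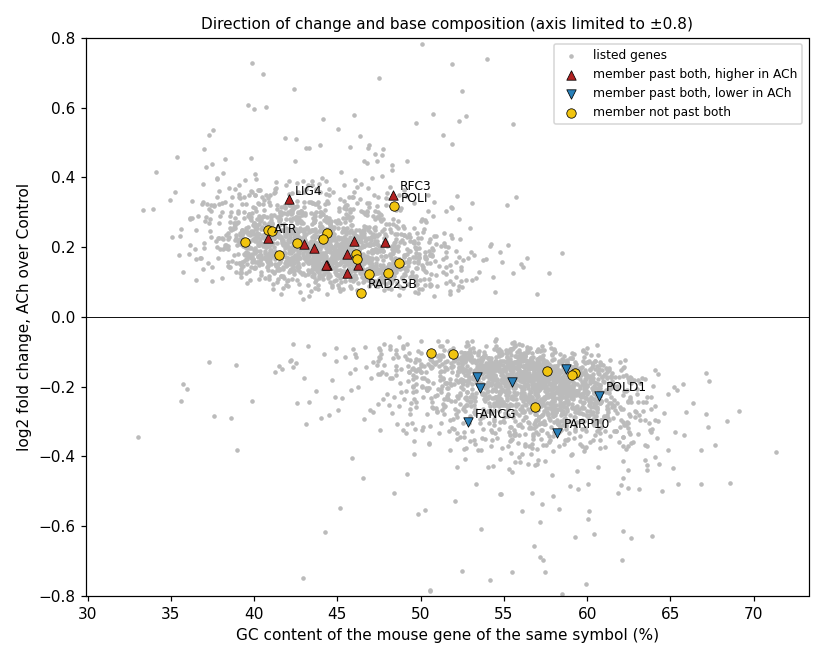
Log2 fold change (ACh over Control) against GC content in percent, taken from the mouse gene with that symbol, for listed genes (gray) and 39 of the 41 genes (triangles where past both tests, circles where not); the vertical axis is limited to ±0.8. The higher members lie at low GC content and the lower members begin at 50.6%, within the slope of the gray cloud.

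Once the trend with GC content was taken out of each library, most of these changes shrank. The median size of the log2 change over the 41 genes was 0.19 with the trend kept and 0.041 with it removed, and 17 genes changed sign. Limma then passed 4 genes, 2 higher and 2 lower, where it passed 7.86% and 8.51% of the 3676 listed genes with a GC value. RFC3 remained higher at a log2 fold change of 0.24 (limma adjusted p = 0.00262). Adding the adjusted p of the authors' deposited table left 2 of the 4, RFC3 among them, as it left 10.5% of the genes with a GC value. RAD23B turned to -0.10 (limma adjusted p = 0.0151). MCM7, MCM2 and LIG1 went to -0.023, -0.014 and -0.052. RRM2, PRIM2, ORC3 and ATR went to 0.038, 0.076, 0.0078 and 0.0084. LIG4 at 0.13, POLI at 0.21, FANCG at -0.17 and PARP10 at -0.10 kept their direction without passing limma. The median log2 fold change was -0.098 over all 4195 listed genes with the trend kept. With the trend removed it was 0.0086 over the 3676 genes with a GC value. The removal also takes out the level shared by the genes of a library, and it rests on mouse sequence. The part of base composition in these changes was not tested beyond this removal.

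**Figure D5:**
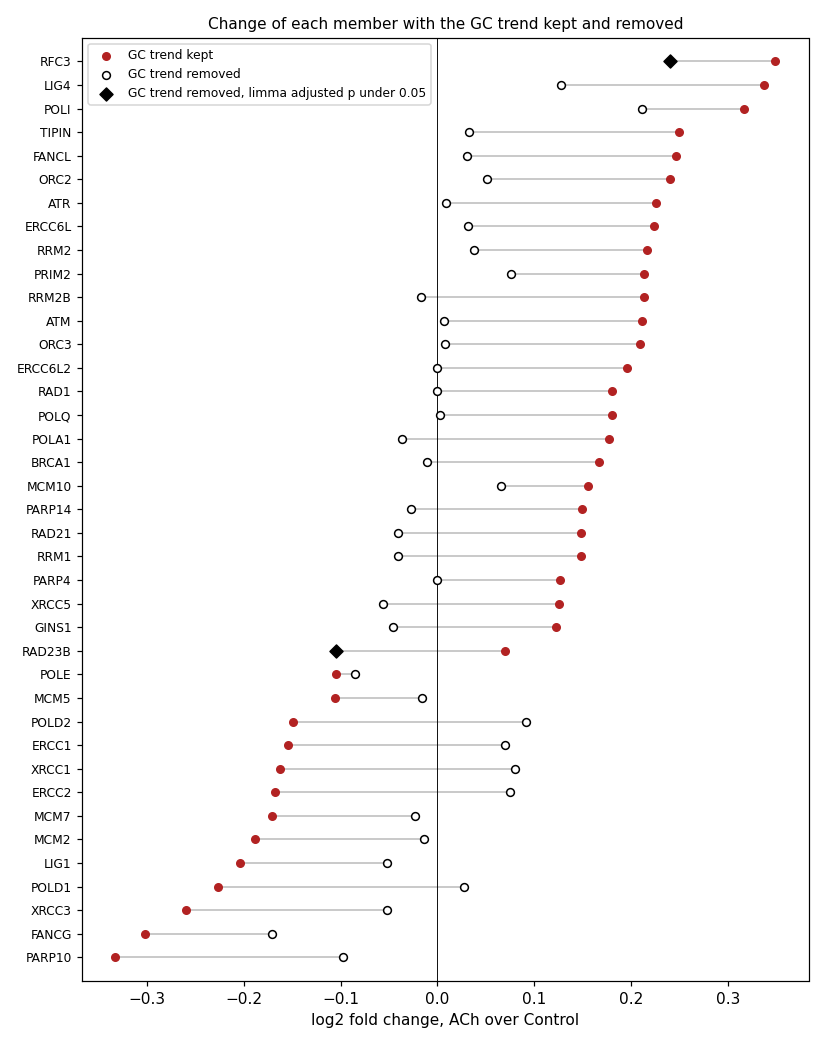
Log2 fold change (ACh over Control) of 39 of the 41 genes with the GC trend kept (filled circles) and removed (open circles, or diamonds where limma's adjusted p was under 0.05). Most open circles lie near 0, and the diamonds are RFC3 and RAD23B.

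Replication genes that the pattern of names does not reach also moved both ways. Of 47 such genes 24 were listed, of which 9 rose and 8 fell, with 7 uncalled. Movement in both directions was general among all listed genes, of which 28.8% rose and 35.0% fell, and is not particular to replication genes. MMS22L, a partner of TONSL at damaged forks, had 925 ± 26.5 normalised reads in ACh and 778 ± 8.61 in Control (SD, n = 3 each), a rise of 0.25 on the log2 scale. The helicase-nuclease DNA2, RIF1, which sets replication timing, and DBF4, the activator of the origin-firing kinase, rose by 0.23, 0.22 and 0.21 on the log2 scale. CHTF18, of an alternative clamp loader, had 1514, 1527 and 1634 normalised reads in ACh and 1849, 1915 and 1921 in Control and fell by 0.28 on the log2 scale. The helicase RECQL4, thymidine kinase TK1 and the licensing factor CDT1 fell by 0.28, 0.23 and 0.22 on the log2 scale. The median log2 fold change over the 24 genes was -0.11, against -0.098 over the table. None of these 8 named genes passed limma with the GC trend removed.

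Of 84 repair genes outside the pattern 23 were listed, of which 9 rose and 4 fell, with 10 uncalled. Of all listed genes 28.8% rose and 35.0% fell. The 23 genes had a median GC content of 44.7%, against 50.9% in the table. Once the GC trend was removed 2 were higher and 1 lower past both tests. The higher genes were NBN and H2AFX. For H2AFX the authors' deposited log2 fold change was -0.12, so its 2 tests differed in direction. DCLRE1A, a nuclease of crosslink repair, had 536 ± 33.7 normalised reads in ACh and 420.5 ± 27.1 in Control (SD, n = 3 each) and rose by 0.35 on the log2 scale. NBN, of the complex that binds double-strand breaks, rose by 0.33, the fork remodeler HLTF by 0.32 and the mismatch repair gene PMS1 by 0.23 on the log2 scale. NTHL1, a glycosylase of base excision repair, had 348 ± 20.1 normalised reads in ACh and 455 ± 5.42 in Control (SD, n = 3 each) and fell by 0.38 on the log2 scale. The glycosylase MPG, the endonuclease APEX1 and the histone variant H2AFX fell by 0.23, 0.18 and 0.12 on the log2 scale. With the GC trend removed NBN and APEX1 kept their calls, at 0.14 and -0.12, and H2AFX passed limma in the opposite direction, at 0.16 (limma adjusted p = 0.00235).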

How the data were processed

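Bowtie 0.12.2 and 2 mouse builds, mm8 and mm10, appear in the submitters' processing notes, while 4183 of the 4195 gene IDs carry the human Ensembl prefix. Which human build, annotation and counting tool were used is not given in the sources used here. The deposited signal values are normalised read counts that the authors divided by 1 factor per library, as read from the values. Library totals outside the listed genes are unknown. Log2 fold changes and p-values came deposited with them, per the file headers, and the authors' adjusted p was exactly 1 for 234 genes, 0 of them among the 41 described.

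Values were tested as log2(value + 1) with limma 3.58.1 (limma-trend, R 4.3.3) on all 4195 rows without a filter, modelling group alone, with p-values adjusted by Benjamini-Hochberg and a threshold of 0.05. The pseudocount shrinks the change of low genes. The members, roles, lists and tests were chosen with earlier results of these data known. Values of all libraries are given for up to 4 genes per role past both tests without overlap, and for the strongest gene of a role otherwise, and some further genes were added after their values were seen. A few members counted here are not reported by name. From the lists up to 4 genes per direction are named. GC content came from GENCODE M21 transcripts (3676 genes), and its trend was removed within each library by loess (span 0.3). Whole reads were recovered in 100% of values and tested with edgeR 4.0.16, which called 4180 genes at an adjusted p of 0.05, and with DESeq2 1.42.0. Also tried were equal totals, limma alone, protein-coding genes only, leaving out each library, a replicate block, a filter at the lower quartile and a pseudocount of 0.1. The limma and edgeR steps were tested on simulated data. Tables and figures were made with Python 3.11.15 (Matplotlib 3.10.9, SciPy 1.17.1, NumPy 2.4.6 and pandas 2.3.3).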

Additional observations from a re-analysis of the deposited data

How the results depend on the processing

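The counts of 12 genes higher and 8 lower past both tests stood at 12 and 8 when any 1 of the 6 libraries was left out, and with a pseudocount of 0.1, protein-coding genes only, edgeR with the recovered or TMM factors, and DESeq2. These counts say little about stability, because the authors' adjusted p is the same in every alternative and limma alone passes nearly every listed gene. With equal totals they were 12 and 7, as POLD2 lost its call, and so did H2AFX of the other repair genes, while the lower genes of the other replication list numbered 6, against 8. With the lower-quartile filter, which kept 33 of the 41 genes, they were 11 and 7. Limma alone called 27 and 14 members, 13 lower replication genes of the other list, and 15 and 7 other repair genes. With the GC trend removed 1 member was higher and 1 lower past both tests, and 0 and 1 of the other replication genes. For these replication genes limma gave 2 and 2 at an unadjusted p under 0.05, and no other tool was run. Of the other repair genes 2 were higher and 1 lower. H2AFX counts among the higher genes there although it was lower in the authors' deposited values. Limma alone with the GC trend removed, an alternative chosen after seeing the data, gave 2 and 2, 0 and 2, and 2 and 2. The members' median log2 fold change moved to -0.00068 with the GC trend removed and to 0.23 with equal totals. In the other alternatives it moved by less than the replicate SD of 0.035. Among the 60 named genes, no alternative other than removal of the GC trend turned a sign. The genes it turned, with their log2 fold changes then, were RAD23B (-0.10), XRCC5 (-0.056), GINS1 (-0.046), RAD21 (-0.041), RRM1 (-0.041), POLA1 (-0.037), PARP14 (-0.027), RRM2B (-0.016), BRCA1 (-0.011), RIF1 (-0.0063), PARP4 (-0.00085), RAD1 (-0.00082), ERCC6L2 (-0.00068), CDT1 (0.022), POLD1 (0.027), PHLDA3 (0.057), BAX (0.063), ERCC1 (0.070), ERCC2 (0.075), XRCC1 (0.080), POLD2 (0.092) and H2AFX (0.16). The cause was not tested.

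Whether equal replicate numbers mark paired samples is not stated in the labels, and the main test modelled group alone. The deviations of same-numbered ACh and Control libraries from their group means correlated at 0.082, 0.056 and 0.047, each below 0.1, although each library correlated best with its own number. With the replicate block the counts were 12 and 8, and these counts say nothing about pairing for the same reason. Limma alone passed 4187 of the 4195 listed genes with the block, against 4178 without it. Its adjusted p was smaller with the block for most of the 41 genes, MCM2, POLD1 and POLD2 among them, and larger for POLI. What this says about pairing was not tested. Depth limits the low genes most: POLI, with 141 reads in its lowest library, had the widest standard error of the 41, at 0.11. Genes outside the deposited table could not be tested.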

Other observations

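Some targets of p53, the transcription factor that answers DNA damage, were in the table. Of 25 such genes 5 were listed, RRM2B of the replication and repair genes among them. None of them rose, 3 fell and 2 were uncalled by limma together with the authors' deposited table. Over all listed genes 28.8% rose and 35.0% fell. Above 50.4% GC, where the 3 that fell lie, 51 of 1886 listed genes rose and 1258 fell. BAX, which opens the mitochondrial outer membrane in apoptosis, had 1728 ± 59.7 normalised reads in ACh and 2045 ± 52.8 in Control (SD, n = 3 each) and fell by 0.24 on the log2 scale. PHLDA3, an inhibitor of AKT, and GDF15, a stress-induced secreted factor, fell by 0.23 and 0.29. By limma alone 1 p53 target, RRM2B, was higher. The anti-proliferative BTG2 was uncalled at a log2 fold change of -0.17. With the GC trend removed BAX and PHLDA3 turned to 0.063 and 0.057, and GDF15 stood at -0.031. Limma then passed 1 of the 5, BTG2, at -0.20 (limma adjusted p = 0.0264). The median GC content of the 5 genes was 61.3%.

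Gene size differed with direction too. The 27 higher replication and repair genes spanned a median of 54708 bases of genome and the 14 lower genes 24791 bases. Over all listed genes the medians were 56369 and 14706 bases. The lengths given in the file had medians of 5463 and 5254 bases for the higher and lower members, and 6745 and 4062 bases for all higher and lower listed genes. The part of gene size in the direction of change was not tested.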
